A study of Homo sapiens with 12 samples.

Results

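The tripartite motif (TRIM) genes were taken as every gene listed in the deposited table of normalized read counts under a symbol made of TRIM and a number. There were 58 of them among 28035 listed genes. Of these, 48 averaged at least 10 normalized reads over the 12 libraries and were tested, among 15990 tested genes in all. The 10 members below that level were TRIM4, TRIM34, TRIM42, TRIM43, TRIM49, TRIM50, TRIM54, TRIM58, TRIM71 and TRIM72. TRIM31 was the 1 tested member that reached the level only through the libraries that received interferon. A normalized read is a read count that the authors scaled so that libraries can be compared.

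A TRIM protein is built from a RING finger, B-box zinc fingers and a coiled coil, followed by a C-terminal domain that differs between subfamilies and binds the substrate. The RING finger takes ubiquitin from a conjugating (E2) enzyme, so most members act as ubiquitin ligases, while the few without a RING work as adapters. Many members that end in a PRY-SPRY domain take part in antiviral defence, and several are textbook targets of type I interferon.

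The libraries were made from OVCAR-3, a cell line established from a human ovarian adenocarcinoma and labelled as wild type and epithelial, 6 h after treatment. Controls received the solvent DMSO. The other groups received Fusicoccin A (FC-A, a fungal diterpene glycoside that holds 14-3-3 proteins onto their partners), interferon alpha (IFNa) or FC-A together with IFNa (Combination), and each of the 4 groups held 3 libraries. The labels state neither the doses nor whether the replicates were separate cultures. The p-values therefore measure the spread between these libraries, which may be technical.

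Each library held 31.2 M to 39.5 M reads on genes. Normalized reads summed to 31.7 M to 32.7 M without IFNa and to 36.3 M to 37.6 M with it. Summed markers of ovarian epithelium (8 genes) lay between 315869 and 416745 normalized reads in all groups. Most of this sum was KRT8, KRT18 and KRT19. Within it MUC16 ran from 9331 to 25040 over the libraries. PAX8 was higher with IFNa, at 17489 to 18030 with DMSO and 20140 to 23234 with IFNa. KRT19 was lower, at 99235 to 101064 with DMSO and 80999 to 93589 with IFNa. The 4 listed of 5 leukocyte markers summed to 194 to 313, and PTPRC, which defines leukocytes, was at most 23.5. Most of that sum was CD14, at 144 to 271, followed by CSF1R at 23.5 to 62.5. Libraries numbered 3 departed from their group means in the same way, with correlations across genes of 0.188 to 0.395 between groups, so counts are also given without them.

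IFNa was followed by a strong rise of one set of TRIM transcripts, led by TRIM22, TRIM31, TRIM21, TRIM14, TRIM5 and TRIM69, all more than 6-fold higher than with DMSO. Of the 48 tested members 28 changed, against 46.9% of all tested genes. In 20 the level rose, against 25.4% of all genes, and in 8 it fell, against 21.5%. The rise was at least 2-fold in 11 members, a share of 22.9% where all genes gave 5.8%, and the fall in 1 member, where all genes gave 3.2%. TRIM31 is in these counts although it reached the level for testing only through the libraries with IFNa, so its rise is no separate result. The median log2 difference was 0.16 over the 48 members and -0.01 over all tested genes. These calls are from limma with Benjamini-Hochberg adjustment over all tested genes at 0.05, and log2 differences are of normalized reads plus 1, which understates the change of genes with few reads. With quantile normalization 17 members were higher and 13 lower, 50.9% of all genes were called, and the median of all genes moved to -0.10. Without the libraries numbered 3 the counts were 21 higher and 11 lower, where 47.4% of all genes were called. In bulk RNA, a change in the number of expressing cells and a change in RNA per cell cannot be told apart.

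**Figure D1:**
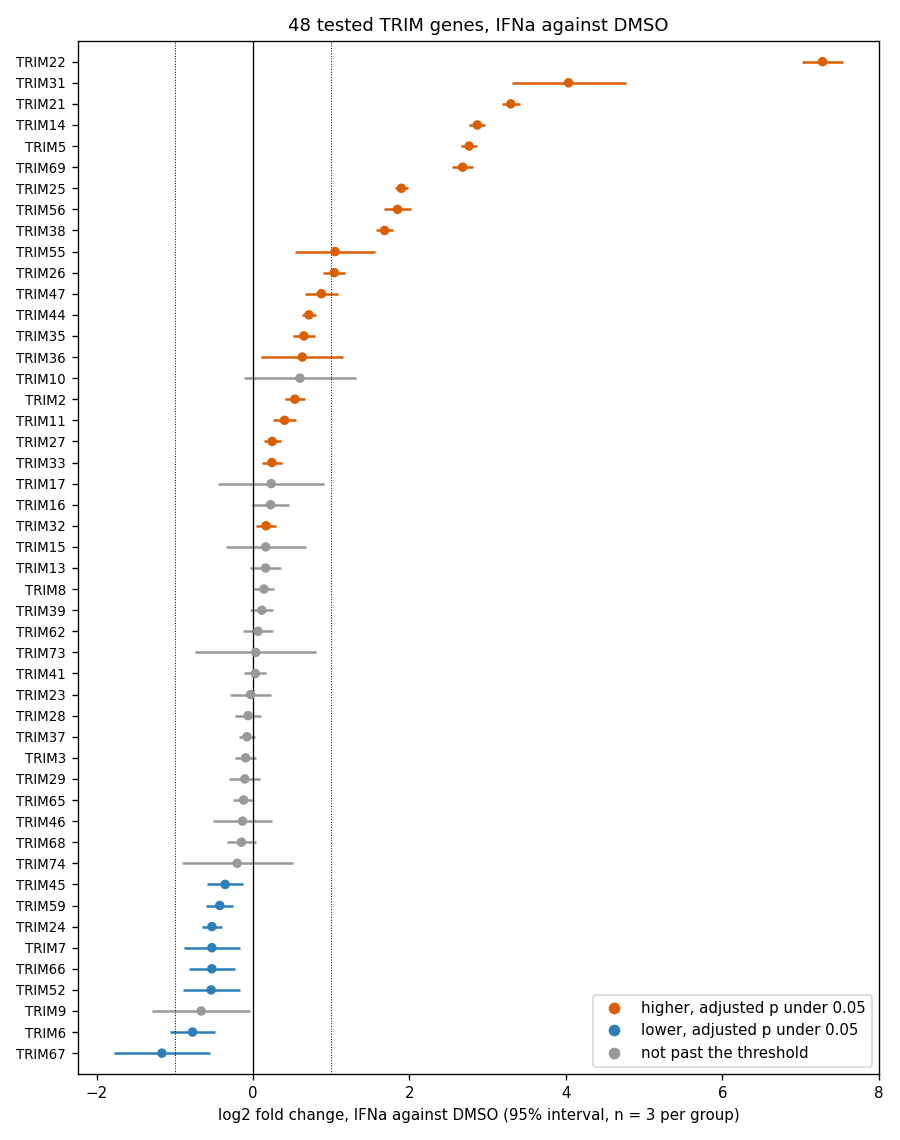
Log2 difference of normalized reads plus 1 between IFNa and DMSO for the 48 tested TRIM genes, ordered by size, with 95% intervals from 3 libraries a group; dotted lines mark a 2-fold difference. TRIM22 stands at 7.28 and 10 further members lie beyond the right dotted line, while TRIM67 is the only member beyond the left one.

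TRIM22 (ENSG00000132274), an interferon-induced nuclear and cytosolic factor that restricts several viruses, gave 113, 106 and 136 normalized reads in the DMSO libraries and 109, 115 and 156 with FC-A. It gave 18725, 17030 and 19785 with IFNa and 19356, 19606 and 21911 in the Combination. The 6 libraries with IFNa lay far above the 6 without it, and within each set of 6 the groups with and without FC-A overlapped. The log2 difference between IFNa and DMSO was 7.28 ± 0.12 (SE, n = 3 per group, adjusted p = 1.5e-15), or 155-fold, the largest among the members. TRIM21 (ENSG00000132109), the cytosolic antibody receptor also known as the autoantigen Ro52, gave 395, 351 and 361 normalized reads with DMSO and 377, 386 and 392 with FC-A. It reached 3623, 3564 and 3693 with IFNa and 3898, 3733 and 3856 in the Combination. Again no library with IFNa came near any library without it, and the log2 difference for IFNa was 3.29 ± 0.05 (adjusted p = 1.2e-15), or 9.82-fold.

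TRIM25 (ENSG00000121060), the ubiquitin ligase that promotes signalling by the RNA sensor RIG-I and works with the antiviral protein ZAP, was already abundant. It gave 6408, 6258 and 6283 normalized reads with DMSO and 6815, 6729 and 6523 with FC-A, then 23913, 23814 and 22808 with IFNa and 23952, 24381 and 24138 in the Combination. The groups with IFNa stood clear of those without it, and the log2 difference for IFNa was 1.90 ± 0.04 (adjusted p = 2.6e-14), or 3.72-fold.

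TRIM5, whose alpha isoform recognises retroviral capsids, gave 786, 784 and 812 normalized reads with DMSO and 913, 859 and 932 with FC-A. With IFNa it gave 5368, 5282 and 5535, and in the Combination 6069, 5950 and 6214. All 4 groups were separate from each other for this gene, and the log2 difference between IFNa and DMSO was 2.76 ± 0.05 (adjusted p = 1.7e-15). TRIM69, a RING ligase described as an interferon-induced inhibitor of vesicular stomatitis virus, gave 551, 557 and 641 with DMSO, 552, 565 and 612 with FC-A, 3658, 3842 and 3689 with IFNa and 4184, 4105 and 4080 in the Combination. The DMSO and FC-A libraries overlapped, and the gene rose by 2.68 ± 0.06 on the log2 scale with IFNa (adjusted p = 8.7e-14). TRIM38, which restrains Toll-like receptor and TNF signalling, gave 1394, 1417 and 1469 with DMSO, 1359, 1450 and 1484 with FC-A, 4796, 4606 and 4354 with IFNa and 5115, 5146 and 5080 in the Combination. Its log2 difference for IFNa was 1.68 ± 0.05 (adjusted p = 1.7e-12).

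TRIM26, which lies in the major histocompatibility complex region, showed the smallest rise among members at or above 2-fold. It gave 2433, 2502 and 2513 normalized reads with DMSO, 2789, 2756 and 2482 with FC-A, 5262, 5282 and 4776 with IFNa and 5781, 5790 and 5005 in the Combination. The library numbered 3 was the lowest of its group in the 3 treated groups, yet every library with IFNa exceeded every library without it. The log2 difference for IFNa was 1.04 ± 0.07 (adjusted p = 1.1e-08).

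A PRY-SPRY or RING is not shared by all responders. TRIM14, an adapter without a RING that sits at mitochondria in antiviral signalling, gave 772, 832 and 826 normalized reads with DMSO, 781, 792 and 728 with FC-A, 5886, 5982 and 5870 with IFNa and 6324, 6422 and 6199 in the Combination. Its log2 difference for IFNa was 2.87 ± 0.05 (adjusted p = 1.7e-15), close in size to that of TRIM5. TRIM56, a ligase of cytosolic DNA sensing with no named C-terminal domain in the lists used here, gave 888, 1009 and 960 with DMSO, 924, 1003 and 1169 with FC-A, 3355, 3630 and 3298 with IFNa and 3608, 3786 and 3395 in the Combination. It rose by 1.85 ± 0.08 (adjusted p = 1.5e-10), with wide gaps between libraries with and without IFNa.

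TRIM31, a ligase that acts on the mitochondrial adapter MAVS, was almost silent without IFNa. It gave 1.81, 6.70 and 6.67 normalized reads with DMSO, 5.35, 5.80 and 4.60 with FC-A, 91.8, 74.2 and 104 with IFNa and 74.9, 94.7 and 105 in the Combination. The log2 difference for IFNa was 4.03 ± 0.34 (adjusted p = 2.6e-07), or 16.4-fold, with the largest SE among the 11 strong responders. It passed the filter on low values only through the groups where it was high, so that difference was a condition of its being tested.

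TRIM55, a muscle RING protein of the sarcomere, passed the test with IFNa alone and not in the Combination. It gave 25.4, 23.9 and 33.4 normalized reads with DMSO, 41.0, 23.2 and 23 with FC-A, 58.1, 60 and 54.6 with IFNa and 38.0, 34.3 and 27.8 in the Combination. The IFNa libraries lay above those of the 3 other groups, which overlapped in part. The log2 difference was 1.05 ± 0.24 between IFNa and DMSO (adjusted p = 0.0023) and 0.27 ± 0.24 between the Combination and DMSO (adjusted p = 0.37). The Combination lay 0.78 below IFNa on the log2 scale (log2 difference -0.78, adjusted p = 0.20), and the interaction was -0.81 ± 0.33 (adjusted p = 1), so the difference between the responses was not past the threshold.

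**Figure D2:**
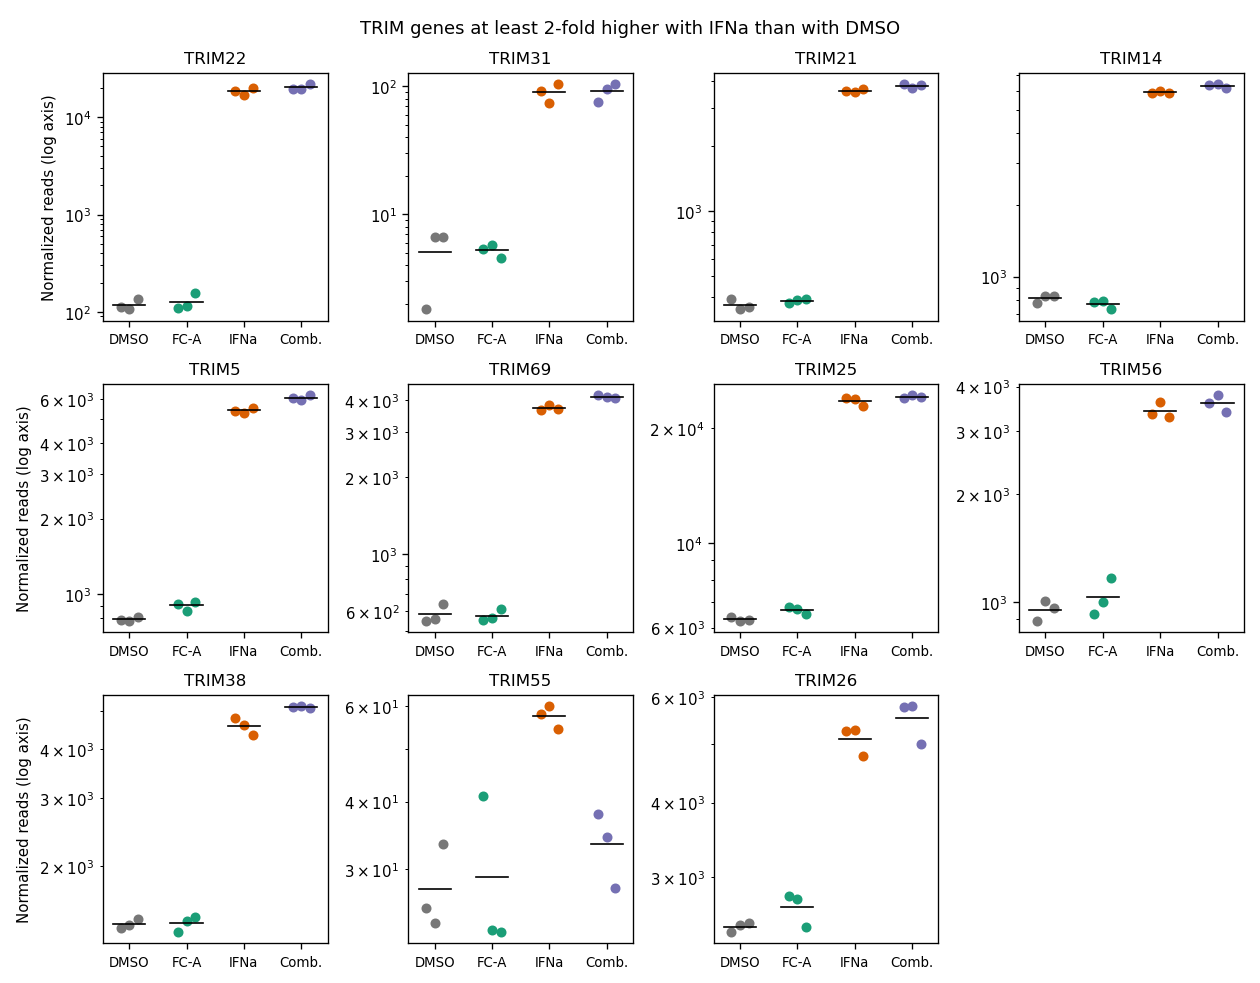
Normalized reads of the 11 TRIM genes that were at least 2-fold higher with IFNa than with DMSO, on log axes that differ between panels; points are libraries and bars are group means of 3. In 10 panels both groups with IFNa lie above both groups without it, and in the TRIM55 panel the Combination returns to 27.8 to 38.0 normalized reads.

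The 8 tested of 9 textbook interferon-induced members, TRIM5, TRIM14, TRIM21, TRIM22, TRIM25, TRIM26, TRIM38 and TRIM56, all rose at least 2-fold, with a median log2 difference of 2.33. Of all tested genes 5.8% rose that much. The list was chosen with earlier results of these data known, so its full count is not independent of them. TRIM34, the remaining name on that list, was not tested. It was listed at 0 in the 3 DMSO libraries, at 1.78, 0.966 and 0.92 with FC-A, at 4.08, 0.952 and 0 with IFNa and at 6.33, 0 and 1.07 in the Combination. TRIM69, TRIM31 and TRIM55 were the strong responders outside the list.

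The promoter sequences of the strong responders are shown because many interferon-induced genes carry an interferon-stimulated response element (ISRE). Its core was searched as GAAA, any 2 bases and GAAA again, on both strands, from 250 bases before to 50 after each start site of the RefSeq table for GRCh38.p14. Those windows held the core in 3.57% of 35116 starts, or in 4.38% of 27305 genes with a start in the table. Of the 37 tested TRIM genes matched by symbol, 8 held it (21.6%). These were 5 of 9 members that rose at least 2-fold, 2 of 6 that rose less (TRIM2 and TRIM44), 0 of 6 that fell and 1 of 16 that did not pass the test (TRIM16). Capitals mark the core, which reads TTTC, 2 bases and TTTC where it lies on the other strand, and overlapping matches are merged.

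TRIM14, chr9:98119223-98119282, minus strand, bases 60 to 1 before the start: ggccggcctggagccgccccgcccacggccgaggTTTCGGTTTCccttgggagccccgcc
TRIM5, chr11:5685075-5685134, minus strand, bases 60 to 1 before the start: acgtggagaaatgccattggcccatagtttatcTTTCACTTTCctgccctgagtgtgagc
TRIM69, chr15:44736441-44736500, plus strand, bases 87 to 28 before the start: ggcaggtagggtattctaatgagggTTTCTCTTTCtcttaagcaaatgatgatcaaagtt
TRIM26, chr6:30213563-30213622, minus strand, bases 216 to 157 before the start: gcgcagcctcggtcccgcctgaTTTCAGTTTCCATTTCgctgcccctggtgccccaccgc
TRIM21, chr11:4393666-4393695, minus strand, bases 7 to 36 after the start: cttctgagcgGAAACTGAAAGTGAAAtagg

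TRIM14 and TRIM5 held the core within the last 60 bases before the start, at 26 and 27 bases before it, and TRIM69 at 62 bases. TRIM26 held 2 overlapping matches at 194 and 188 bases before the start, and TRIM21 2 overlapping matches after it. TRIM31, TRIM25, TRIM56 and TRIM38 were matched and held no such letters in this window. The tested members with no entry in the table were TRIM8, TRIM11, TRIM13, TRIM22, TRIM24, TRIM27, TRIM28, TRIM29, TRIM35, TRIM45 and TRIM55. These matches describe letters, not binding.

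Members that neighbour each other differed in direction. On chromosome 11 (GENCODE annotation of GRCh38) TRIM6 (5596109 to 5612958), TRIM34 (5619764 to 5644398), TRIM5 (5663557 to 5938619) and TRIM22 (5689689 to 5737089) form a cluster in which TRIM22 lies within the span of TRIM5 on the opposite strand, with no exon base shared. TRIM22 and TRIM5 rose as given above, and TRIM6, whose unanchored ubiquitin chains activate the kinase IKBKE, fell. TRIM6 gave 147, 184 and 166 normalized reads with DMSO, 182, 196 and 247 with FC-A, 98.9, 84.7 and 106 with IFNa and 145, 142 and 130 in the Combination. The IFNa libraries were the lowest and apart from all others, with a log2 difference from DMSO of -0.77 ± 0.14 (adjusted p = 0.00034), while the difference between the Combination and DMSO was -0.25 ± 0.14 (adjusted p = 0.15). Against FC-A alone the Combination was lower for TRIM6 past the threshold in limma. The authors' deposited table gave -0.58 there (adjusted p = 0.0011). The interaction did not pass for TRIM6, so the fall was not shown to differ with FC-A.

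On chromosome 6 the members TRIM31, TRIM10, TRIM15, TRIM26 and TRIM39 lie between 30102897 and 30343729. TRIM31 and TRIM26 rose. TRIM10, known from red cell development, was 0.60 ± 0.33 higher on the log2 scale (adjusted p = 0.15), TRIM15 0.16 ± 0.24 (adjusted p = 0.60) and TRIM39 0.11 ± 0.07 (adjusted p = 0.19), and none of these passed.

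By domain class, the PRY-SPRY members with a RING made up 11 of the 20 that rose. Of 21 tested, 11 rose, 2 fell (TRIM6 and TRIM7) and 8 did not pass, with a median of 0.40. Of all genes 25.4% rose and 21.5% fell, with a median of -0.01, and the counts of this and the following classes stand beside those shares. The other classes hold 3 to 6 tested members each, too few for their counts to be read against them. Besides the strong responders this class held TRIM47 (log2 difference 0.87 ± 0.10, adjusted p = 4.4e-06), TRIM35 (0.65 ± 0.06, adjusted p = 1.5e-06), TRIM11 (0.40 ± 0.07, adjusted p = 0.00034) and TRIM27, a fusion partner of RET (0.25 ± 0.05, adjusted p = 0.0012). With quantile normalization the TRIM27 value was 0.055 (adjusted p = 0.34), no longer past the threshold. TRIM7, a partner of glycogenin, fell by 0.53 (log2 difference -0.53 ± 0.16, adjusted p = 0.018), a call lost without DMSO replicate 2 (adjusted p = 0.072) or IFNa replicate 1 (0.079). TRIM65, a ligase of the RNA sensor MDA5, stood at -0.12 ± 0.06 (adjusted p = 0.13), and TRIM41, TRIM62, TRIM68, TRIM15, TRIM17, TRIM10 and TRIM39 did not pass either.

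Of 5 tested members without a RING, TRIM14 and TRIM44 rose, TRIM66 fell, and TRIM16 and TRIM29 did not pass. TRIM44, which carries a zinc finger of the ubiquitin protease type, gave 5458, 5575 and 5455 normalized reads with DMSO and 9086, 9006 and 8968 with IFNa. The IFNa libraries lay well above, with a log2 difference of 0.71 ± 0.04 (adjusted p = 4.3e-09). TRIM16 shares near-identical sequence with TRIM16L, and reads of the pair may have been divided by the counting.

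Of the 4 chromatin members, which carry a PHD finger and a bromodomain, 1 rose, 2 fell and TRIM28 did not pass. TRIM24, a nuclear receptor coregulator and ligase of p53, gave 1261, 1364 and 1337 normalized reads with DMSO and 955, 928 and 870 with IFNa. All 3 IFNa libraries were below the DMSO libraries, with a log2 difference of -0.53 ± 0.06 (adjusted p = 4.9e-06). TRIM66 fell by a like amount (-0.53 ± 0.14, adjusted p = 0.0063), and TRIM33, which acts with SMAD proteins, rose by 0.24 ± 0.06 (adjusted p = 0.0034), which quantile normalization reduced to 0.11 (adjusted p = 0.15). TRIM28, the co-repressor of KRAB zinc-finger proteins, gave 28466, 29129 and 27304 normalized reads with DMSO and 27504, 28739 and 25145 with IFNa. These ranges overlapped, and the log2 difference was -0.06 with a 95% interval of -0.22 to 0.10 (adjusted p = 0.52).

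In the NHL repeat class TRIM2, a ligase of neurofilament light chain, rose by 0.53 ± 0.06 (adjusted p = 6.1e-06) and TRIM32, mutated in a limb-girdle muscular dystrophy, by 0.17 ± 0.06 (adjusted p = 0.033), while TRIM3 did not pass. The TRIM32 call was lost without any 1 DMSO library (adjusted p = 0.080, 0.077 and 0.074) and without IFNa replicate 1 (0.15), and quantile normalization gave 0.047 (adjusted p = 0.54). Among 5 COS box members, which bind the cytoskeleton, TRIM55 and TRIM36 rose and TRIM67 fell. TRIM36 stood at 0.63 ± 0.24 (adjusted p = 0.047), and its call was lost when any 1 library of the DMSO, IFNa or Combination groups was left out, with adjusted p from 0.051 to 0.15. TRIM67, a neural member, gave 32.7, 37.3 and 20 normalized reads with DMSO, 24.9, 17.4 and 19.3 with FC-A, 12.2, 14.3 and 10.9 with IFNa and 12.7, 8.29 and 11.7 in the Combination. The groups with IFNa were lower than both without it, and the log2 difference for IFNa was -1.16 ± 0.28 (adjusted p = 0.0039).

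Of the members with other C-terminal parts, TRIM59 and TRIM45 fell (-0.42 ± 0.08 and -0.36 ± 0.11, adjusted p = 0.00063 and 0.015), and TRIM13, TRIM23 and TRIM37 did not pass. The TRIM45 call was lost without IFNa replicate 2 (adjusted p = 0.073). TRIM52, with no named C-terminal domain, fell by 0.53 (log2 difference -0.53 ± 0.17, adjusted p = 0.019), a call lost without DMSO replicate 2 (0.096), IFNa replicate 1 (0.085) or IFNa replicate 2 (0.067). TRIM8, TRIM73 and TRIM74 did not pass, and TRIM73 and TRIM74 are near-identical copies. Some members share exon bases with a gene on the opposite strand, among them TRIM59 with SMC4 (19.8% of its exon length) and TRIM47 with AC087289.5 (51.5%, a gene averaging 1.73 normalized reads). The strand setting of the counting is not given, so reads of such pairs cannot be told apart. Other members share exon bases with a gene on the same strand, which no strand setting separates: TRIM6 with the readthrough gene TRIM6-TRIM34 (29.3% of its exon length), TRIM39 with TRIM39-RPP21 (29.5%) and TRIM16 with AC005324.3 (23.5%). The values of TRIM6 and of TRIM34 depend on how the counting treated such reads, which is not stated.

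Per kilobase of exon, the order of the members changed with IFNa. With DMSO, TRIM28 led at 7015 ± 229 normalized reads per kilobase (SD, n = 3), followed by TRIM29 (676 ± 32.3), TRIM25 (665 ± 8.44) and TRIM26 (567 ± 9.87), where TRIM29 and TRIM25 did not differ beyond their spread. TRIM22 ranked 39th of 48 at 19.7 ± 2.62, and TRIM31 ranked 48th at 1.43 ± 0.80. With IFNa, TRIM28 still led at 6725 ± 453, and TRIM22 ranked 2nd at 3075 ± 231, ahead of TRIM25 (2475 ± 64.4) and TRIM21 (1880 ± 33.7). TRIM26, TRIM5 and TRIM14 came next between 1081 and 1167, and TRIM26 and TRIM5 did not differ beyond their spread. Exon lengths are of all annotated exons of a gene merged, not of the isoforms these cells use.

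Markers of other cell types were read beside these results. The summed fibroblast markers (4 of 4 listed) lay at 851 to 915 normalized reads with DMSO and 1008 to 1085 with FC-A. With IFNa they lay at 1417 to 1926 and in the Combination at 1583 to 2186, mostly COL1A1. COL1A2 went the other way with IFNa, at 66.2 to 84.9 with DMSO and 34.3 to 55.6 with IFNa. It gave 65.9 to 98.5 with FC-A and 45.0 to 55.5 in the Combination. DCN and LUM, which define fibroblasts, stayed between 0 and 1.90 in every library. The endothelial markers (2 of 3 listed) lay at 242 to 324 with DMSO, 205 to 294 with FC-A, 136 to 188 with IFNa and 115 to 166 in the Combination. Their part in the TRIM results was not tested.

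The Combination against DMSO changed 27 members, against 48.3% of all genes: 19 higher (26.1% of all genes) and 8 lower (22.2%). At least 2-fold rises were seen in 10 members, where all genes gave 6.42%. With quantile normalization the Combination against DMSO gave 15 higher and 11 lower, where 53.5% of all genes were called. The response to IFNa in cells that also received FC-A, read as the Combination against FC-A, changed 27 members, against 48.9% of all genes. Of these 18 were higher (26.6% of all genes) and 9 lower (22.3%), and 10 rose at least 2-fold (6.42%). Quantile normalization gave 15 higher and 11 lower in this comparison too, where 53.2% of all genes were called. FC-A against IFNa gave 29 changed members (49.6% of all genes), 8 higher (22.6%) and 21 lower (27.0%). Quantile normalization gave 12 higher and 16 lower there, where 51.8% of all genes were called. These comparisons share libraries with each other and with IFNa against DMSO. TRIM31, which passed the filter only through the libraries with IFNa, is in the counts of each, so its calls are no separate result.

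Set side by side, the log2 differences with and without FC-A were 7.33 and 7.28 for TRIM22, 3.88 and 4.03 for TRIM31, 3.31 and 3.29 for TRIM21, and 1.85 and 1.90 for TRIM25. For TRIM14 they were 3.04 and 2.87, for TRIM69 2.84 and 2.68, and for TRIM38 1.84 and 1.68. The difference between these responses is the interaction of FC-A and IFNa, which called 0 of the 48 members and 0.0% of all genes in limma. With no adjustment 3 members had p under 0.05 (TRIM14, TRIM38 and TRIM55), against 3.92% of all genes, and edgeR and DESeq2 on the recovered reads called 0 members. The smallest p among the members was that of TRIM14, with an interaction of 0.17 and a 95% interval of 0.03 to 0.32 (adjusted p = 1). In 40 of 48 members the 95% interval of the interaction lay within a 2-fold change either way. For TRIM22 it was -0.32 to 0.42, for TRIM21 -0.15 to 0.18 and for TRIM25 -0.16 to 0.08.

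**Figure D3:**
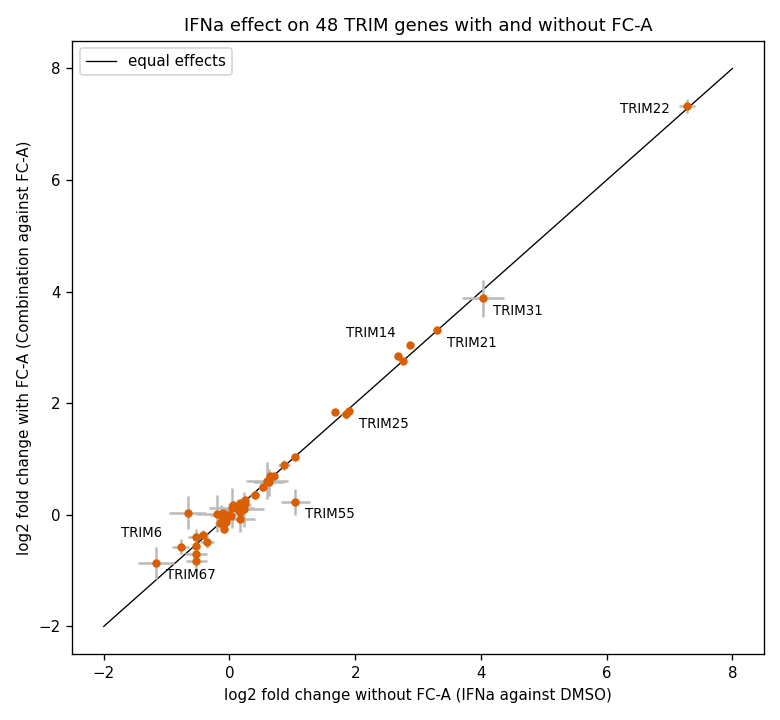
Log2 difference for IFNa without FC-A (horizontal axis) and with FC-A (vertical axis) for the 48 tested TRIM genes, with SE bars and a line of equal values. The 2 axes share no library, TRIM22 lies at 7.28 and 7.33, and TRIM55 lies below the line at 1.05 and 0.23.

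FC-A given alone changed no member past the threshold in the limma fit without a replicate block. FC-A against DMSO called 0 of 48 in limma, where 0.3% of all genes were called, and 3 members had an unadjusted p under 0.05 (TRIM2, TRIM5 and TRIM6), against 8.61% of all genes. edgeR on the recovered reads called 0. DESeq2 called 1, TRIM2, of 39 members with an adjusted p, where 1.26% of all genes were called. The authors' deposited table also called only TRIM2, of 42 members with an adjusted p. Limma with the replicate number as a block called 2, TRIM2 and TRIM5, where 1.81% of all genes were called. In 46 of 48 members the 95% interval lay within a 2-fold change either way, the exceptions being TRIM67 and TRIM73, and the members' median log2 difference was 0.02. For TRIM22 the interval was -0.18 to 0.34, for TRIM21 -0.05 to 0.18 and for TRIM25 -0.00 to 0.17.

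TRIM2 had the smallest p. It gave 2052, 1995 and 2079 normalized reads with DMSO, 2590, 2267 and 2620 with FC-A, 2964, 2854 and 3060 with IFNa and 3391, 3385 and 3732 in the Combination. The 4 groups did not overlap and stood in that order. The log2 difference for FC-A was 0.28 ± 0.06 against DMSO (adjusted p = 0.072) and 0.24 ± 0.06 in the Combination against IFNa (adjusted p = 0.13), neither past the threshold. Without FC-A replicate 2 the first was 0.35 (adjusted p = 0.040). With DESeq2 the adjusted p were 0.0047 and 0.028, and without the libraries numbered 3 limma gave 0.037 for the second. Limma with the replicate number as a block gave adjusted p of 0.0025 and 0.0057. The interaction was -0.04, with a 95% interval of -0.23 to 0.14.

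Adding FC-A to IFNa likewise changed 0 of 48 members in limma, against 0.331% of all genes. Unadjusted p was under 0.05 in 7 members (14.6%), where all genes gave 13.2%: TRIM2, TRIM5, TRIM6, TRIM9, TRIM38 and TRIM69 were higher and TRIM55 lower. The groups did not overlap in 10 members that were higher (9.64% of all genes) and 2 that were lower (6.75%). edgeR called 0. DESeq2 called TRIM2 and TRIM5, of 42 members with an adjusted p, where 1.65% of all genes were called. The authors' deposited table called the same members, of 41 with an adjusted p. Limma with the replicate number as a block called 4 (TRIM2, TRIM5, TRIM6 and TRIM29), where 6.31% of all genes were called. Without the libraries numbered 3, limma called 5 members (TRIM2, TRIM6, TRIM16, TRIM29 and TRIM66), 4 higher and 1 lower. That is 10.4% of the members, where 7.42% of all genes were called. Without IFNa replicate 3 alone it called 1, TRIM6. TRIM6 stood at 0.53 ± 0.14 (adjusted p = 0.14) and TRIM5 at 0.17 ± 0.05 (adjusted p = 0.16). TRIM9, a neuronal COS box member, stood at 0.87 ± 0.29 (adjusted p = 0.25), with 12.4 to 38.4 normalized reads over the libraries with IFNa. In 44 of 48 members the 95% interval lay within a 2-fold change either way.

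**Figure D4:**
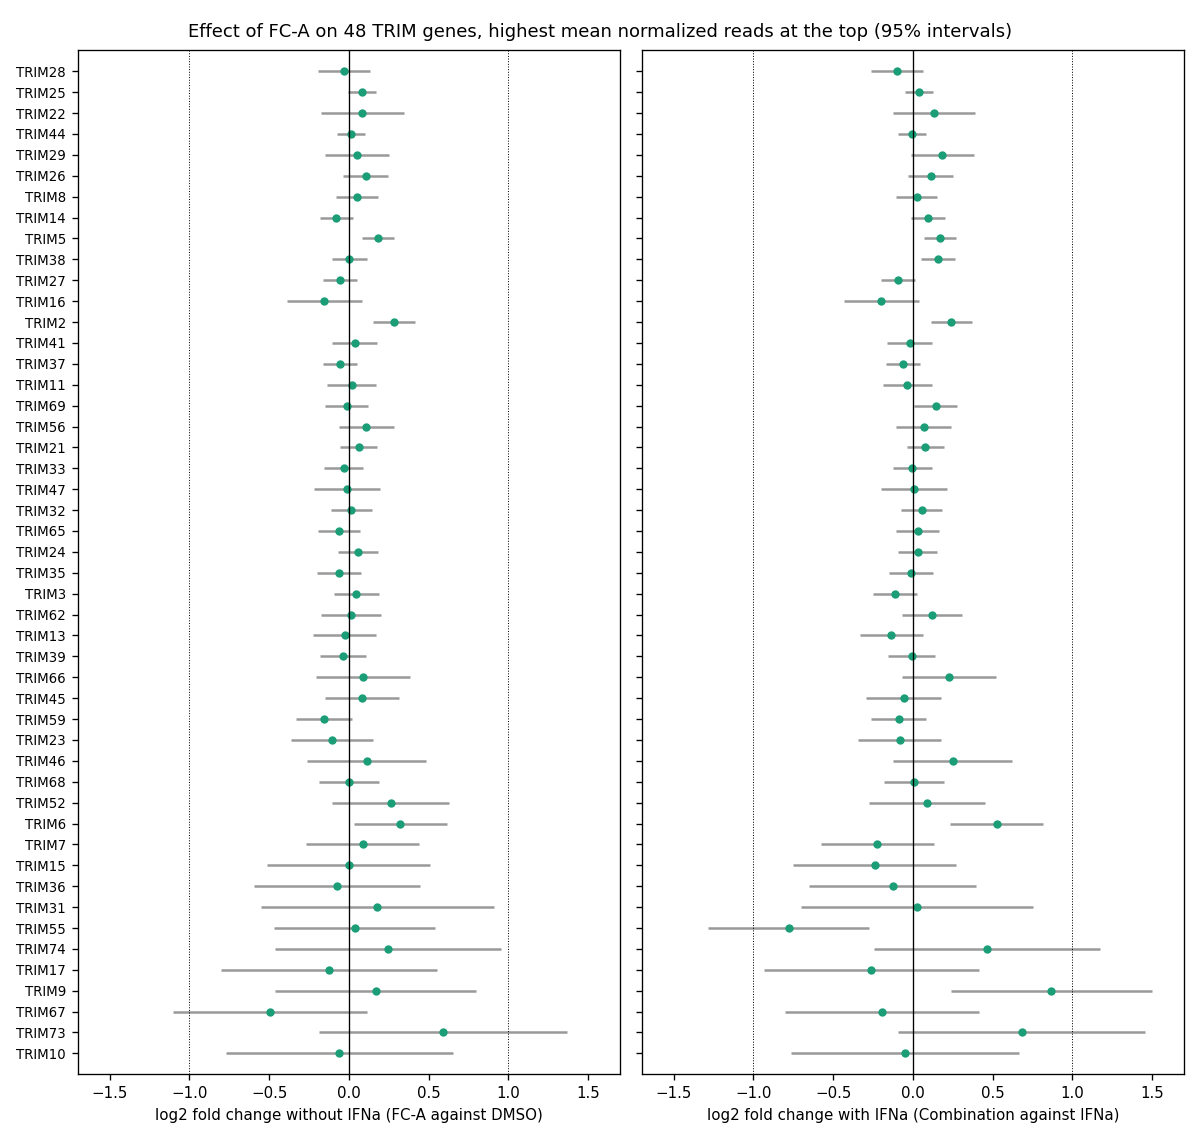
Log2 difference for FC-A without IFNa (left) and with IFNa (right) for the 48 tested TRIM genes, from the most to the least abundant, with 95% intervals from 3 libraries a group; dotted lines mark a 2-fold difference. None is past the threshold in this fit, which has no replicate block, and intervals widen toward the bottom, where members average few reads.

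**Figure D5:**
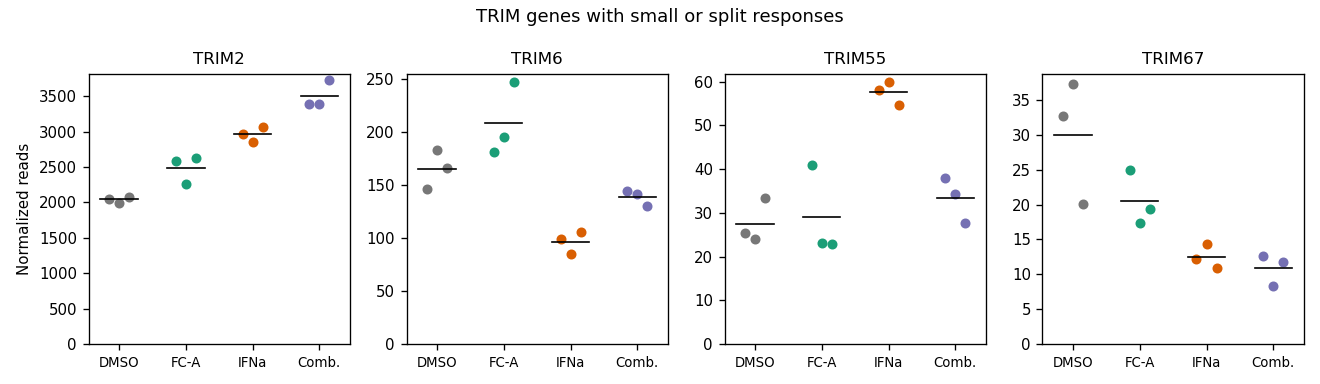
Normalized reads of TRIM2, TRIM6, TRIM55 and TRIM67 in each library, with group means of 3 as bars and axes from 0. TRIM2 steps up over the 4 groups, TRIM6 is lowest with IFNa, TRIM55 is highest with IFNa alone, and TRIM67 is lower in both groups with IFNa.

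Genes related to the members or working with them were read from lists of the same kind. Of 6 tested relatives under other symbols, PML, MID1 and MID2 rose with IFNa against DMSO, RNF135 and BSPRY fell, and TRIM16L did not pass. Of all genes 25.4% rose and 21.5% fell, and 6 relatives are too few for their counts to be read against these shares. PML, the TRIM19 protein that organises nuclear bodies, averaged 2134 ± 48.3 normalized reads with DMSO (SD, n = 3), 2387 ± 25.9 with FC-A, 16384 ± 308 with IFNa and 18922 ± 416 in the Combination. Its log2 difference was 2.94 ± 0.04 for IFNa (adjusted p = 1.8e-16) and 0.21 ± 0.04 for the Combination against IFNa (adjusted p = 0.043). PML was the only gene of these lists past the threshold when FC-A was added to IFNa. It did not pass in FC-A against DMSO or in the interaction, and its IFNa response with FC-A present was 2.99. The alternatives were not run for PML.

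Of 15 E2 enzymes, 7 rose with IFNa, 1 fell (UBE2E3) and 7 did not pass, with a median of 0.15. The 8 of 15 that changed are close to the 46.9% of all genes. UBE2L6, the E2 of the ubiquitin-like modifier ISG15, rose from 1279 ± 67.9 to 15137 ± 423 normalized reads (log2 difference 3.56 ± 0.05, adjusted p = 5.8e-16). UBE2Z followed at 0.69 ± 0.04, UBE2D3 at 0.45 ± 0.05 and UBE2W at 0.36 ± 0.09, all past the threshold.

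The list of innate signalling genes was also chosen with earlier results of these data known, so its count is not independent of them. Of 17 tested innate signalling partners and substrates, 12 rose and 0 fell, with a median of 0.59, where 25.4% of all genes rose and 21.5% fell. The largest were IFIH1, the sensor MDA5 (log2 difference 5.78 ± 0.07), DDX58, the sensor RIG-I (5.14 ± 0.05), IRF7 (4.36 ± 0.07) and TMEM173, the adapter STING (1.71 ± 0.12), with adjusted p of 2.9e-08 or lower. Of 10 co-repressor partners of TRIM28, MORC3 rose (0.49 ± 0.06), CBX5, CHD3, CBX1 and CHD4 fell (-0.70, -0.32, -0.23 and -0.15) and 5 did not pass, so that 5 of 10 changed where 46.9% of all genes did.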

How the data were processed

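Stranded mRNA libraries (TruSeq, 100 ng of total RNA) were sequenced from 12 samples in 4 groups of 3. Tools listed without a role in the submitters' processing notes are DESeq2 1.24.0, STAR 2.7.3, bcl2fastq 2.20 and FastQC, with hg19 as the build; the counting program, its strand setting and the annotation were not stated. The deposited signal is a table of read counts that the authors divided by a size factor per library. Per the file headers, the deposited comparison tables hold the authors' log2 fold changes, p-values and adjusted p-values. The same deposited tables hold a test statistic (score), which was not used. All values (100%) came back to within 0.01 of a whole number of reads when divided by the value of 1 read in their library.

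Genes averaging at least 10 normalized reads were kept, which left out 12045. limma 3.58.1 (R 4.3.3) with a mean-variance trend was fitted to log2(normalized reads + 1) in 1 model of 4 groups. P-values were adjusted by Benjamini and Hochberg over all tested genes within each of the 7 comparisons, at 0.05, and the same limma fit is behind every adjusted p unless another tool is named. The script was tested on simulated data. Alternatives were a pseudocount of 0.5 or 8, no filter, a mean of at least 50, TMM scaling, quantile normalization, a replicate block, each library left out, replicate 3 left out of every group, edgeR 4.0.16 and DESeq2 1.42.0 on the recovered reads, and the authors' deposited table. The members, the gene lists and the tests were chosen with earlier results of these data known. Per-library values were given for TRIM21, TRIM22, TRIM25, members past the threshold with a 2-fold change for IFNa, and the member with the smallest p where FC-A or the interaction gave none; up to 4 genes of each partner list were named by size. TRIM24, TRIM28, TRIM34, TRIM44, TRIM6, TRIM16L, UBE2E3, BSPRY and CHD4 were added after their values were seen. Figures were drawn with matplotlib 3.10.9.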

Additional observations from a re-analysis of the deposited data

How the results depend on the processing

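Over all alternatives run, 24 to 32 members were called for IFNa against DMSO and 22 to 30 for the Combination against DMSO. The counts were 25 to 31 for the Combination against FC-A and 25 to 32 for FC-A against IFNa. The members tested and the share of all genes called also moved with the setting. With no filter 58 members were tested, and 26.4%, 27.4%, 27.8% and 27.9% of all genes were called, in the order above. With a mean of at least 50, 39 members were tested, and the shares were 52.2%, 53.4%, 53.7% and 54.8%. For FC-A against DMSO, where limma called 0, DESeq2 and the authors' deposited table each called 1, and leaving out 1 library 0 to 1. For the Combination against IFNa, also 0, DESeq2 and the authors' deposited table each called 2, the fit without replicate 3 of every group 5, and leaving out 1 library 0 to 1. The interaction gave 0 in every fit run; the authors' deposited table holds no interaction. Of 111 calls of single members, 85 were kept under every alternative in which the member was tested and 26 were lost under at least 1. Among the 26, 2 also changed sign: with quantile normalization TRIM27 and TRIM8 stood at log2 differences of -0.026 and -0.028 in the Combination against DMSO. The cause was not tested.

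Replicate numbers are shared by the groups, but they were not taken as pairing: over 18 same-numbered pairs the correlation of deviations was 0.018 to 0.395, above 0.1 in 10, and 7 of 12 libraries correlated best with their own number. With the replicate number as a block, 2 members were called for FC-A against DMSO (TRIM2 and TRIM5), where 1.81% of all genes were called. For the Combination against IFNa 4 were called (TRIM2, TRIM5, TRIM6 and TRIM29), where all genes gave 6.31%, and for IFNa against DMSO 30 (53.9%). That fit called 30 for the Combination against DMSO (55.4% of all genes) and 31 for the Combination against FC-A (55.7%). It called 30 for FC-A against IFNa (56.0%) and 0 for the interaction. TRIM2 then passed in FC-A against DMSO (adjusted p = 0.0025, limma) and in the Combination against IFNa (0.0057). Members with few reads had the widest intervals, and 3 libraries a group limit what small FC-A differences can show.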

Other observations

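TRIM31-AS1, an antisense transcript that shares exon bases with TRIM31 and whose level was too low to be tested, gave 13.4 ± 1.89 normalized reads with DMSO (SD, n = 3), 13.1 ± 5.50 with FC-A, 5.49 ± 1.89 with IFNa and 6.62 ± 2.2 in the Combination. TRIM52-AS1 was lower with IFNa than with DMSO by limma (log2 difference -0.46 ± 0.15, adjusted p = 0.024), as was TRIM52 itself. The strand setting of the counting is not known, so reads on the exon bases shared by TRIM31 and TRIM31-AS1 cannot be told apart. TRIM52 shares exon bases on the opposite strand with CTC-338M12.4 (28.5% of its exon length), and none with TRIM52-AS1 in the annotation used here.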
